A study of Homo sapiens with 6 samples.

Results

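The mitochondrial ribosomal protein genes are the nuclear genes whose products build the ribosome inside mitochondria. Members were the protein-coding genes with a current NCBI symbol that starts with MRPL (large subunit) or MRPS (small subunit) followed by a digit, matched by NCBI gene ID. This gave 75 of the 19589 features in the authors' deposited table, 48 with an MRPL symbol and 27 with an MRPS symbol, and all 75 had an adjusted p. RefSeq lists 77 genes under these names. MRPL9 and MRPS34 were present only as single transcripts and are not members. The choice used names alone and no measured value. The cells are labelled HepG2, an established line from a hepatocellular carcinoma, and were transfected either with siHOTAIR, a small interfering RNA directed at the long non-coding RNA HOTAIR, or with siNC, a negative control siRNA. No other agent or genetic change is named for either group, and the labels leave the time between transfection and harvest unstated. Total RNA was depleted of ribosomal RNA and sequenced from 3 libraries per group as labelled.

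The mitochondrial ribosome translates the messenger RNAs made from mitochondrial DNA, which in humans all encode subunits of the oxidative phosphorylation complexes. Its ribosomal RNAs come from mitochondrial DNA, whereas its proteins are encoded in the nucleus, made in the cytosol and imported. The small subunit binds the messenger RNA and reads the codons, and the large subunit joins the amino acids and guides the new chain through an exit tunnel to the inner membrane. Many of these proteins have bacterial relatives and many others are found only in mitochondria, and liver cells are rich in mitochondria.

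The deposited table holds 1 mean per gene and no value per library, but for 16704 of the 19461 features with reads the mean could be resolved into whole reads of 5 libraries, each divided by the library's size factor, 2 of siNC and 3 of siHOTAIR. All 75 members were among them. Of the 3 labelled siNC libraries, 1 does not enter these means. Libraries are called A, B and C here because their replicate numbers are unknown. Recovered reads came to between 5509034 and 7230590 per library over these features, and those of the members to between 33977 and 47192. A single member had between 29 and 2046 reads in a library, so the counting error was largest for MRPS18C, the member with the lowest mean. The labels do not say whether separate cultures were used, so p-values here measure the spread between these libraries and nothing wider, and that spread may be technical. HOTAIR itself had 202 and 150.1 normalized counts (reads divided by the library's size factor) in siNC and 62.4, 78.2 and 59.7 in siHOTAIR, 37.9% of the siNC level (log2 fold change -1.37 in the authors' deposited table, adjusted p = 5.60e-11). The liver label was not borne out by its markers. Of 12 plasma protein genes, 5 had a value and their means were 0.167 to 0.382 normalized counts, while the other 7 were not analysed here, and the liver factor HNF4A had a mean of 5.06. The epithelial keratin KRT8, which HepG2 cells also make, was present with a mean of 22106. The libraries are therefore called by their label only. In bulk RNA, fewer cells of a type and less RNA per cell cannot be told apart.

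The members' promoters shared short sequence words known from binding sites of regulators of nuclear mitochondrial genes. RefSeq (GRCh38.p14) gave the 300 bases from 250 before to 50 after the start for 67 of the 75 members, and each word was searched on both strands. The ETS word CCGGAAG, known from GABPA sites, stood in 28 member promoters (41.8%) and in 14.2% of 15842 protein-coding promoters of the same length, or 18.7% of the 10428 whose gene had an adjusted p. The YY1 word AAGATGG stood in 23 (34.3%) against 6.40% of all and 7.38% of tested promoters, and the NRF1 word GCATGCG in 7 (10.4%) against 5.14% and 6.42%. At least 1 of these 3 words stood in 44 member promoters (65.7%), in 23.0% of all and in 28.9% of tested promoters. The GC-box word GGGCGG stood in 61.2% of member promoters, 58.5% of all and 69.9% of tested promoters, and the E-box word CACGTG in 8.96%, 8.88% and 10.1%. The windows below are shown because they carry these words in members that changed, the first 3 in members that fell and the last 3 in members that rose, with 1 match of the word or its reverse complement in capitals.
MRPS18C: aaaggtgctgcGCATGCGtattgaaaaacc
MRPS18B: agtttcctgaaGCATGCGcagttgcctttc
MRPS22: tctataagggcCCGGAAGacttccggccct
MRPL27: ccacgcagggcCCGGAAGtagatctcctga
MRPS12: catggacgcagCCATCTTggaccgggaaca
MRPL36: cccccccgccgCCATCTTccttcctggcag
The MRPS18C window (chr4:83455913-83455942, plus strand) and the MRPS18B window (chr6:30617806-30617835, plus strand) hold the NRF1 word. MRPS22 (chr3:139343896-139343925, plus strand) and MRPL27 (chr17:50373218-50373247, minus strand) hold the ETS word, and the MRPS22 window also holds its reverse complement in lower case. MRPS12 (chr19:38930722-38930751, plus strand) and MRPL36 (chr5:1799853-1799882, minus strand) hold the YY1 word as its reverse complement. All 6 lie in the 250 bases before the start and are written 5′ to 3′ along the gene's strand. The counts above also include matches that reach into the 50 bases after the start. For most of the 23 members with the YY1 word, no match lay wholly before the start. The NRF1 word overlaps its own reverse complement by all but 1 base, so the 2 searches can meet the same stretch. Of the 44 members with at least 1 of the NRF1, ETS and YY1 words 5 rose and 10 fell, and of the 23 with none 7 rose and 4 fell. Of the 28 members with the ETS word 3 rose and 4 fell (median log2 fold change 0.05), and of the 39 without it 9 rose and 10 fell (median 0.06). Of the 23 members with the YY1 word 3 rose and 5 fell, and of the 7 with the NRF1 word 1 rose and 3 fell. Whether calls differ with the words was not tested. A match describes letters and was not tested as a binding site.

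The question of the comparison was which transcripts differ after HOTAIR knockdown. Mitochondrial ribosomal protein genes did not shift as a block: some rose, some fell and most did not pass the test. At an adjusted p under 0.05 in the authors' deposited table, 13 members rose, 17 fell and 45 did not pass. That is 40% of members called, beside 40.4% of the 14597 features with an adjusted p, of which 20.0% rose and 20.4% fell. The members' share is therefore close to that of all features. Among the features within the range of the members' means 48.8% were called, more than among the members. Their median log2 fold change was 0.02, beside 0.01 over all features, and the middle 50% of members lay between -0.28 and 0.18, beside -0.33 and 0.31 over all features. Changes were mostly small: 64 of 75 members (85.3%) changed by less than 1.5-fold, beside 80.5% of the features within the range of the members' means. Of the members 10 (13.3%) passed and changed at least 1.5-fold, beside 17.8% of all features and 19.5% of those with a like mean. Only MRPS27 and MRPS18C both passed the test and changed at least 2-fold, beside 6.25% of all features.

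**Figure D1:**
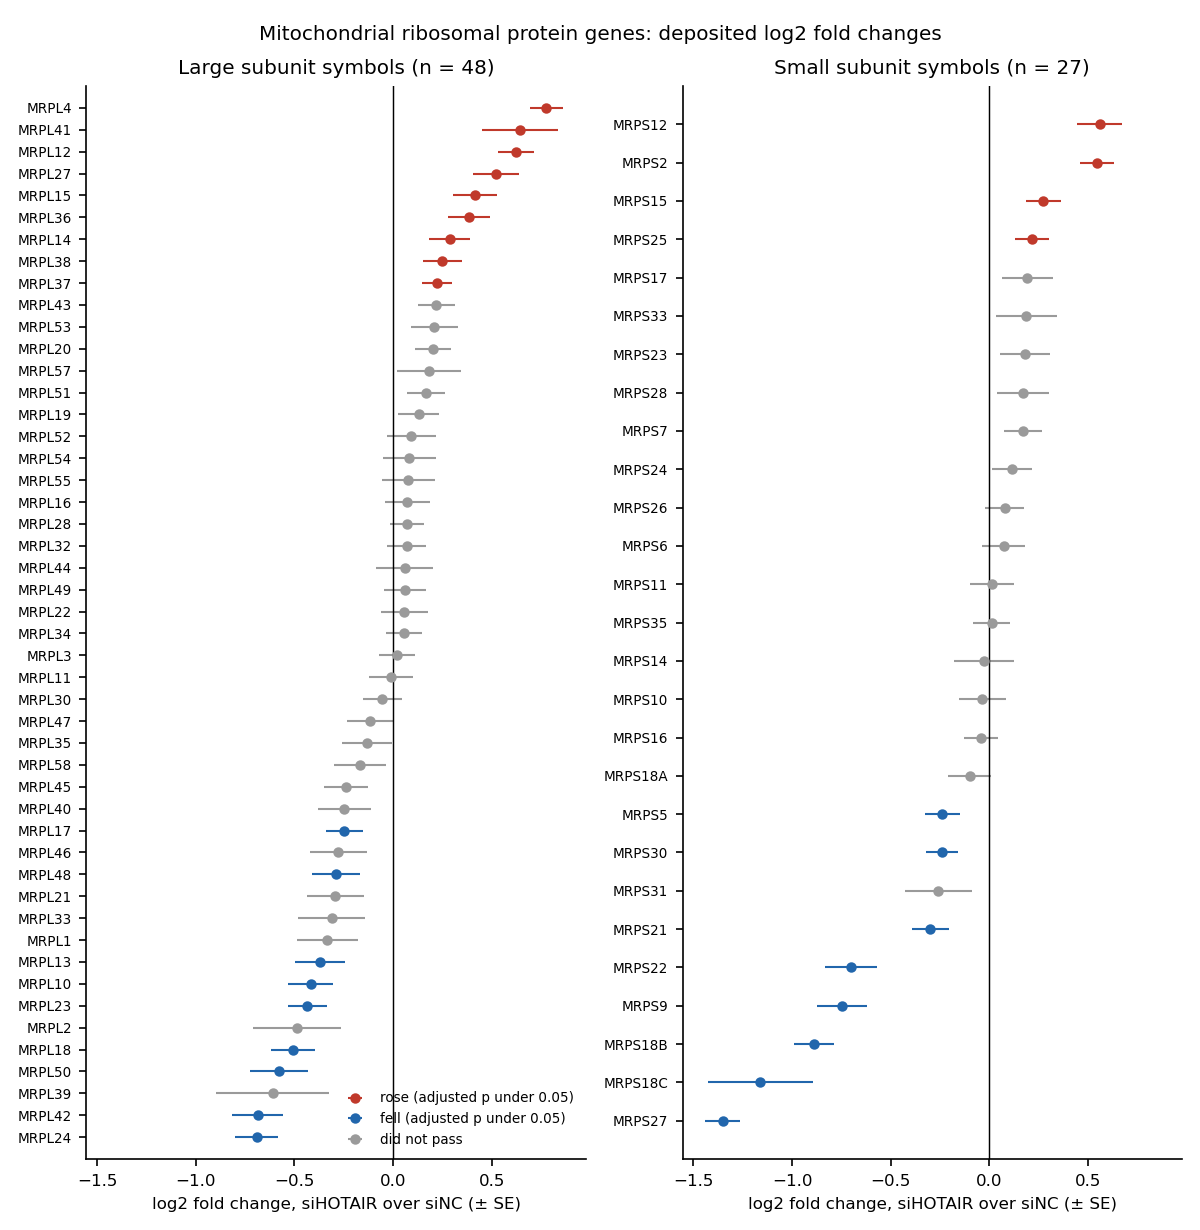
Log2 fold change (siHOTAIR over siNC) with its standard error for each of the 48 large subunit and 27 small subunit members, from the authors' deposited table and ordered by value, coloured by whether the adjusted p was under 0.05. Values run from -1.35 for MRPS27 to 0.78 for MRPL4, and members that rose and that fell appear in both subunits.

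**Figure D2:**
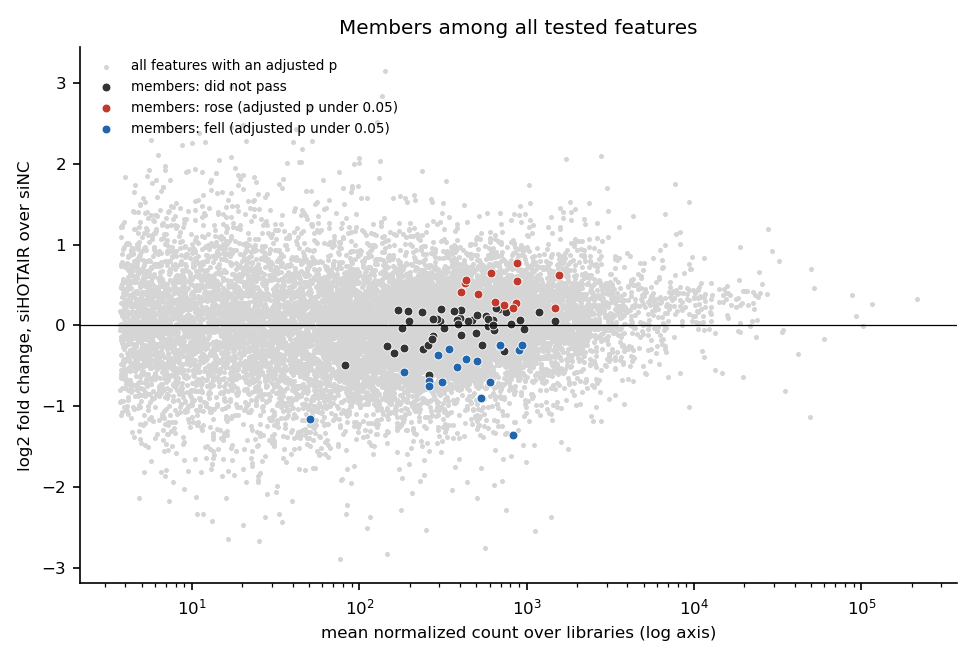
Log2 fold change against the mean normalized count (log axis) for all 14597 features with an adjusted p (grey) and the 75 members (coloured by call), from the authors' deposited table. The members sit in the middle of the cloud of features, with means from 50.7 (MRPS18C) to 1564 (MRPL12).

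Small subunit members held the largest decreases. Of the 27 members with an MRPS symbol, 8 fell and 4 rose (44.4% called), with a median log2 fold change of 0.01. Without siNC library B limma called 5 of the 27 as lower. MRPS27 (NCBI gene 23107), a pentatricopeptide repeat protein of the mitochondrial small subunit, had 1266 and 1338 normalized counts in siNC and 542, 509.6 and 466 in siHOTAIR. The groups lay far apart, with every siHOTAIR library far below both siNC libraries. Its siHOTAIR mean was 506 ± 38.1 (SD, n = 3) against 1302 ± 50.8 (SD, n = 2), and the authors' deposited table gives a log2 fold change of -1.35 with a standard error of 0.09 (adjusted p = 1.05e-49).

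The MRPS18 family has 3 human members, which are relatives of bacterial ribosomal protein S18, and they did not move alike. MRPS18C, which takes the place of S18 in the small subunit and whose promoter window is shown above, had 75.4 and 78.4 normalized counts in siNC and 25.1, 41.8 and 32.7 in siHOTAIR. MRPS18B, which sits at another place in the small subunit, had 711 and 774 in siNC and 403, 427 and 363 in siHOTAIR. For both genes every siHOTAIR library lay below every siNC library. MRPS18A, which is part of the large subunit despite its name, had 465 and 575 in siNC and 505, 489 and 453 in siHOTAIR, and its groups overlapped. Log2 fold changes of -1.16 for MRPS18C (adjusted p = 7.33e-05), -0.89 for MRPS18B (adjusted p = 3.84e-17) and -0.10 for MRPS18A (adjusted p = 0.512) stand in the authors' deposited table. Whether the 3 relatives differ from each other was not tested. MRPS18A was picked out once its value was known.

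MRPS9, the mitochondrial relative of bacterial S9 in the head of the small subunit, and MRPS22, a mitochondria-specific protein, also fell. MRPS9 had 339.9 and 351 normalized counts in siNC and 223, 207 and 181 in siHOTAIR. MRPS22 had 397 and 420.2 in siNC and 293, 248 and 203 in siHOTAIR. In both, the siNC libraries were close together and all siHOTAIR libraries lower, and siHOTAIR library C was the lowest. By the authors' deposited table MRPS9 changed by -0.75 on the log2 scale (adjusted p = 7.66e-08) and MRPS22 by -0.70 (adjusted p = 1.23e-06). The remaining small subunit members that fell, MRPS21, MRPS30 and MRPS5, had log2 fold changes between -0.30 and -0.24 in the authors' deposited table. MRPS30, like MRPS18A, is placed in the large subunit in structures of the ribosome. With both counted there, 7 of 25 small subunit members fell and 4 rose, and 10 of 50 large subunit members fell and 9 rose.

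The small subunit members that rose were MRPS12, MRPS2, MRPS15 and MRPS25, and none of them reached 1.5-fold. MRPS12, the relative of bacterial S12 at the decoding site, had 294 and 379.8 normalized counts in siNC and 502, 482 and 500.2 in siHOTAIR. MRPS2 had 659.7 and 719 in siNC and 1046, 997 and 971 in siHOTAIR. Both showed all siHOTAIR libraries above both siNC libraries, and the siNC libraries of MRPS12 differed from each other more than its siHOTAIR libraries did. By the authors' deposited table MRPS12 rose by 0.56 on the log2 scale (adjusted p = 9.38e-06), MRPS2 by 0.54 (adjusted p = 2.69e-09), MRPS15 by 0.27 and MRPS25 by 0.22. MRPS35, a mitochondria-specific small subunit protein, lay near 0, with 618 and 631 in siNC and 665, 599.5 and 621 in siHOTAIR (log2 fold change 0.01 with a standard error of 0.09 in the authors' deposited table).

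Of the 48 members with an MRPL symbol 9 rose and 9 fell (37.5% called), with a median log2 fold change of 0.06, and none changed 2-fold. This split moved with the fit and the control library: limma on the recovered values called 10 as higher and 15 as lower over all 5 libraries, 5 and 15 without siNC library A, and 14 and 7 without siNC library B. MRPL4, the relative of bacterial L4 that lines the exit tunnel, rose most. It had 599 and 617 normalized counts in siNC and 1075, 1021 and 1036 in siHOTAIR, so the groups lay far apart with little spread inside each. Its log2 fold change in the authors' deposited table was 0.78 with a standard error of 0.08 (adjusted p = 9.09e-19).

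MRPL12, the stalk protein that helps translation factors act on the ribosome and has also been described as a partner of the mitochondrial RNA polymerase, had 1052 and 1312 normalized counts in siNC and 1772, 1730.0 and 1955 in siHOTAIR. MRPL41, a mitochondria-specific protein, had 373 and 531 in siNC and 696, 672 and 772 in siHOTAIR. MRPL27, the relative of bacterial L27 near the catalytic centre, had 301 and 373 in siNC and 487, 514 and 449 in siHOTAIR. In all 3 genes siNC library A was the lowest of the 5 libraries and no siHOTAIR library reached down to siNC. MRPL12 rose by 0.62 on the log2 scale in the authors' deposited table (adjusted p = 1.27e-10), MRPL41 by 0.64 (adjusted p = 0.00336) and MRPL27 by 0.52 (adjusted p = 3.76e-05). MRPL15 (0.41) and MRPL36 (0.39), relatives of bacterial L15 and L36, followed in the same table. MRPL36 had 389 and 482 in siNC and 591, 569.5 and 539.6 in siHOTAIR, and without siNC library A it no longer passed limma's test (log2 difference 0.23).

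On the other side stood MRPL24, the relative of bacterial L24 near the end of the exit tunnel, with 695 and 879.5 normalized counts in siNC and 464, 526 and 462 in siHOTAIR. MRPL42, a mitochondria-specific protein, had 325 and 353 in siNC and 229, 202 and 194 in siHOTAIR. MRPL50, also specific to mitochondria, had 227 and 233 in siNC and 151, 166 and 142 in siHOTAIR. No siHOTAIR library of these 3 genes reached the lower siNC library. MRPL24 changed by -0.69 on the log2 scale in the authors' deposited table (adjusted p = 2.78e-09), MRPL42 by -0.69 (adjusted p = 8.93e-07) and MRPL50 by -0.58 (adjusted p = 3.60e-04). MRPL18 (-0.51), MRPL23 (-0.43), MRPL10 (-0.42) and MRPL13 (-0.37) also fell in that table, and MRPL48 (-0.29) and MRPL17 (-0.25) fell least. MRPL3, the relative of bacterial L3, had 757 and 840.3 in siNC and 849.8, 820.1 and 750.3 in siHOTAIR, with overlapping groups.

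**Figure D3:**
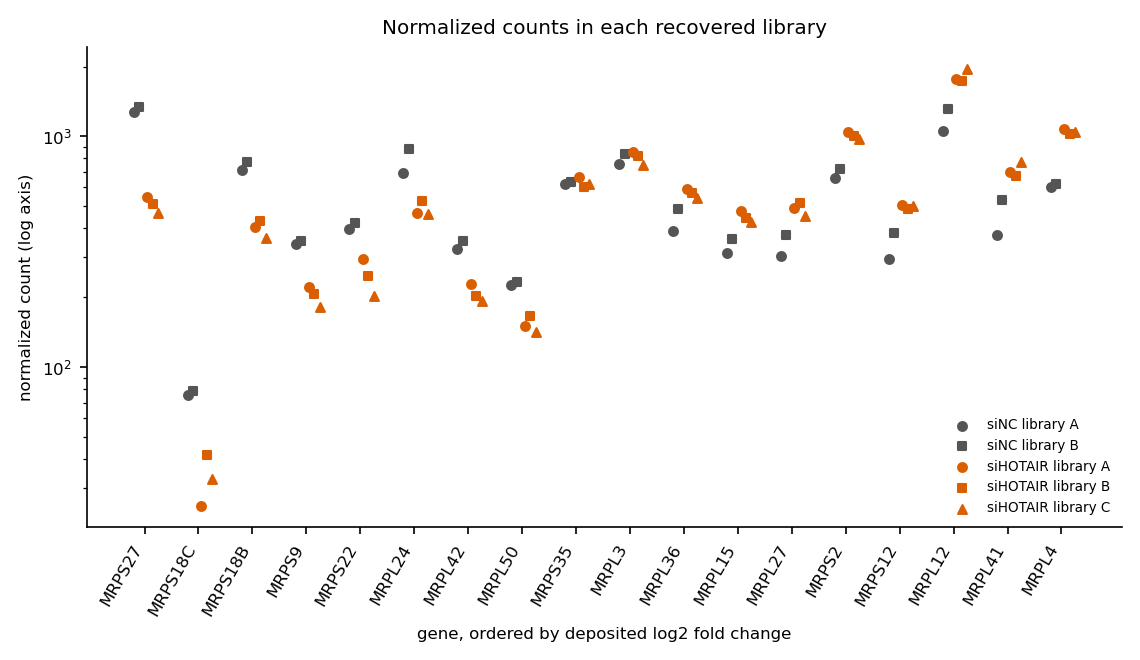
Normalized counts (log axis) of 18 members in each of the 5 recovered libraries, grey for siNC and orange for siHOTAIR, ordered from the lowest to the highest log2 fold change. For the 8 members at the left every siHOTAIR library lies below both siNC libraries, for MRPS35 and MRPL3 they overlap, and for the 8 at the right every siHOTAIR library lies above.

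Members were also grouped by their site on the ribosome, in short lists. For comparison, 40.4% of all features were called (20.0% rose and 20.4% fell). The groups did not overlap in 62.8% of tested features with recovered reads. Among 6 proteins of the L1 and L7/L12 stalks, MRPL12 rose, MRPL10 (the base that holds MRPL12) fell and the other 4 did not pass. The 6 proteins listed for the central protuberance split 2 and 2, with MRPL27 and MRPL38 higher and MRPL18 and MRPL48 lower, and none of the 6 had overlapping groups. Around the tunnel exit and the membrane anchor, 3 of 7 members fell (MRPL24, MRPL23 and MRPL17), none of them rose, and the median log2 fold change was -0.24. This list holds members only: GADD45GIP1, also a large subunit protein at the tunnel exit, rose (0.26 in the authors' deposited table). The anchor protein MRPL45 had 540.0 and 646 normalized counts in siNC and 535, 529 and 435 in siHOTAIR, lower in every siHOTAIR library, but did not pass (in the authors' deposited table, log2 fold change -0.24 and adjusted p = 0.076). In the small subunit head only MRPS9 of 8 passed, and it fell. Of the 43 members listed with a bacterial counterpart 9 rose and 10 fell (44.2%), and of the 32 not so listed 4 rose and 7 fell (34.4%). MRPS18B, a relative of S18 that sits at another place, stands among the 32. Whether these lists differ was not tested.

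The groups did not overlap in 41 of 75 members (54.7%), 18 higher and 23 lower in siHOTAIR, beside 62.8% of the 14359 tested features with recovered reads (30.8% higher and 32.0% lower). All 30 members that passed were among the 41. Of the other 11, MRPL39, a mitochondria-specific large subunit protein, had the largest difference. It had 294 and 372 normalized counts in siNC and 273, 198 and 163 in siHOTAIR, so siHOTAIR library A nearly reached siNC library A. The authors' deposited table gives MRPL39 a log2 fold change of -0.61 with the largest standard error of any member, 0.28 (adjusted p = 0.073). This standard error implies a dispersion, the deposited fit's value for the variance between libraries beyond counting error relative to the squared mean. It was not measured from the recovered counts, so ratios of it need not follow the observed spread. In MRPL39 it was 7.95 times the median of features with a like mean, and 99.9% of those features had a smaller one. Being a variance, it overstates the ratio of standard deviations. MRPL41 (5.45 times) and MRPL33 (4.57 times) also had a high dispersion for their mean. The siNC counts alone do not set MRPL41 apart. MRPS17 differed about as much between siNC libraries B and A (ratio 1.44, against 1.42 in MRPL41), yet its dispersion was 1.56 times the median. MRPL33 had 729 and 937 in siNC and 750.2, 610.2 and 639 in siHOTAIR, with overlapping groups (in the authors' deposited table, log2 fold change -0.31 and adjusted p = 0.137). The 2 tests differed here: limma over the 5 libraries called MRPL39 (-0.68, adjusted p = 4.29e-05) and MRPL33 (-0.32, adjusted p = 0.00646) as lower. MRPL39 and MRPL33 were picked out once their values were known.

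Members shared a difference between the 2 control libraries. Normalized counts were higher in siNC library B than in siNC library A for 73 of 75 members (97.3%), beside 51.0% of all tested features and 51.8% of those with a like mean. The median ratio was 1.16 in members and 1.01 in features with a like mean. The ratio ran from 0.900 for MRPS25, with 797 in siNC library A and 717 in B, to 1.52 for MRPL57. The other exception was MRPL44, with 195 and 193. Summed over all members, normalized counts were 36601 in siNC library A and 42344 in siNC library B, and the siHOTAIR libraries lay between them, at 40882 in A, 39073 in B and 38276 in C. The groups of these sums overlapped. Within siHOTAIR, library A was the highest of the 3 for 62.7% of members, beside 39.3% of features with a like mean. For 35 members the difference between the siNC libraries was larger than that between the group means. The share of other features for which this holds was not counted. Whether growth, RNA quality or library preparation moved with this difference was not tested.

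**Figure D4:**
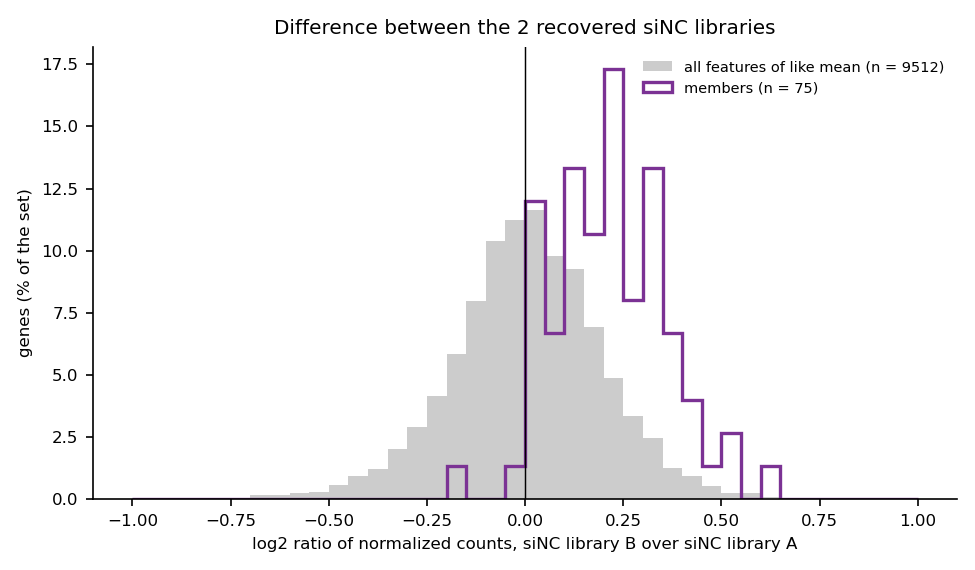
Distribution of the log2 ratio of normalized counts between siNC library B and siNC library A, as the share of each set per bin, for the 75 members (line) and for features within the range of the members' means (grey bars). The grey bars centre on 0, while 73 of 75 members lie above 0.

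The number of members that passed moved with the control library used. With limma on the recovered values, 14 members rose and 23 fell over all 5 libraries, beside 22.8% and 24.0% of all tested features. A pseudocount of 0.5 gave 14 and 23 (beside 22.8% and 23.9%), and limma-voom on the recovered reads, added after seeing the data, gave 14 and 22 (beside 22.6% and 24.4%). With 1 siHOTAIR library left out, 10 to 14 rose (beside 21.6%, 19.2% and 21.4% of all tested features without A, B and C) and 18 to 24 fell (beside 23.3%, 21.0% and 22.8%). Without siNC library A, 8 members rose and 22 fell (10.7% and 29.3%, beside 18.3% and 18.8% of all tested features). Without siNC library B, 19 rose and 12 fell (25.3% and 16.0%, beside 19.2% and 18.4%). The median log2 difference of the members went from -0.10 to 0.09 between these choices. All 30 calls of the authors' deposited table were also made by limma over the 5 libraries. In every fit with 1 library left out, 7 of the 13 members that rose and 11 of the 17 that fell were called in the same direction. MRPL14, MRPL36, MRPL37, MRPL38 and MRPS15 were no longer called as higher without siNC library A. MRPL13, MRPL17, MRPL48, MRPS5 and MRPS21 were no longer called as lower without siNC library B, and neither was MRPS25 as higher. MRPS30 was not called when either siNC library was left out.

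Several members share a start region with a gene on the other strand. Of 17 such pairs with starts within 1000 bases (RefSeq positions), both genes passed in 4. Taken singly, 40.4% of all features passed, and the share of such pairs over all genes was not counted. MRPS27 and PTCD2, which encodes another pentatricopeptide repeat protein of mitochondria, both fell. PTCD2 had 126 and 127 normalized counts in siNC and 70.2, 43.9 and 59.7 in siHOTAIR, a log2 fold change of -1.08 in the authors' deposited table. MRPL18 fell with TCP1, a subunit of the cytosolic chaperonin (-0.55 in that table), and MRPS30 with its divergent transcript MRPS30-DT (-1.63 at a mean of 22.4). MRPL27 rose while EME1, a DNA repair endonuclease subunit on the other strand, fell (-0.51 in the authors' deposited table). Neither gene passed in 5 pairs, MRPL46 and MRPS11 among them, which are members on both sides. In the remaining 8 pairs 1 gene passed. MRPS12 rose while SARS2, the mitochondrial seryl-tRNA synthetase, did not pass (-0.24, adjusted p = 0.061 in the same table), and MRPS18B fell while PPP1R10 did not pass (-0.07).

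Of the 75 members, 21 overlap another gene with reads, and no source used here states the strand setting of the counting. Reads from overlapping stretches may therefore have been left out or counted for the wrong gene. MRPL24 overlaps HDGF on the same strand, which fell by 0.30 on the log2 scale in the authors' deposited table at a mean of 5273. MRPL36 overlaps NDUFS6 (0.32) and MRPL14 overlaps TMEM63B (0.38), and both of these rose in the same table. MRPS6, which did not pass (0.07), overlaps SLC5A3, which fell (-1.28). RefSeq also lists 106 pseudogenes under these names, 3 of which had a value. How reads matching both a gene and its pseudogene were counted is unstated as well.

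The mitochondrial ribosome holds further proteins whose symbols do not start with MRP, and 5 of the 6 listed here passed, beside 40.4% of all features. DAP3, the GTP-binding protein of the small subunit, had 1447 and 1609 normalized counts in siNC and 1253, 1212 and 1204 in siHOTAIR. PTCD3, a pentatricopeptide repeat protein of the small subunit like MRPS27, had 820.5 and 855 in siNC and 641, 571 and 609 in siHOTAIR. Both were lower in every siHOTAIR library. PTCD3 (-0.46), DAP3 (-0.32) and NDUFAB1 (-0.30), the mitochondrial acyl carrier protein, fell in the authors' deposited table. GADD45GIP1, a large subunit protein at the tunnel exit, and AURKAIP1, a small subunit protein, rose (0.26 and 0.24 in that table), and CHCHD1 did not pass (0.25, adjusted p = 0.096).

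Genes that assemble or serve the ribosome also went both ways. Their shares called stand beside 40.4% of all features, of which 20.0% rose and 20.4% fell. Of 31 genes for assembly and ribosomal RNA modification 9 rose and 5 fell (45.2%), with RCC1L (0.63) and the pseudouridine synthase RPUSD4 (0.57) among those that rose and NGRN (-0.54) among those that fell, all in the authors' deposited table. Of 18 translation factors and insertion proteins 6 fell and 1 rose (38.9%). The elongation factor genes GFM2 (-1.32) and GFM1 (-0.94) and the insertase gene OXA1L (-0.52) fell and TUFM (0.54) rose in the same table. GFM2 had 332 and 337 normalized counts in siNC and 141, 104 and 149.8 in siHOTAIR, clearly apart. Of 22 genes listed with the mitochondrial tRNA synthetases 9 fell and 3 rose (54.55%), with a median of -0.25. The list is not of synthetases alone: QRSL1, an amidotransferase subunit that fell, is in it. MARS2 (-1.23) and HARS2 (-0.68) fell by the authors' deposited table. Of 20 genes for mitochondrial transcription and RNA processing, with POLG counted among them, 7 rose and 3 fell (50.0%). POLG (0.96), the DNA polymerase, and POLRMT (0.62), the RNA polymerase, rose there and PRORP (-0.81) fell. Of 10 genes for matrix proteases and processing (70.0% called) 3 rose, LONP1 (0.42) among them, and 4 fell, XPNPEP3 (-1.20) among them, in the authors' deposited table. Genes of mitochondrial DNA were not analysed here.

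Of the regulators whose words stand in the members' promoters, YY1 passed and NRF1 and GABPA did not. YY1 had 743 and 749.6 normalized counts in siNC and 921, 921 and 866 in siHOTAIR and was higher in every siHOTAIR library (0.27 in the authors' deposited table, adjusted p = 0.00383). In that table NRF1 had 0.16 (adjusted p = 0.424) and GABPA 0.08 (adjusted p = 0.703). Of the 10 regulators listed 4 rose, MYC (0.57), PPARGC1B (0.55) and PPRC1 (0.44) besides YY1, and 2 fell. Complex I subunits, which are partly made by this ribosome, gave 5 that rose and 10 that fell of 36 nuclear genes (41.7%, median -0.07). Cytosolic ribosomal proteins, their counterparts outside mitochondria, gave 61 that rose and 2 that fell of 85, with a median of 0.35 against 0.02 in the members. The control library difference was there too. In complex I genes siNC library B exceeded A in 33 of 36 (median ratio 1.20). It did so in all 18 cytosolic ribosomal protein genes with recovered reads (1.24), but in 13 of 22 genes of the tRNA synthetase list (1.03).

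**Figure D5:**
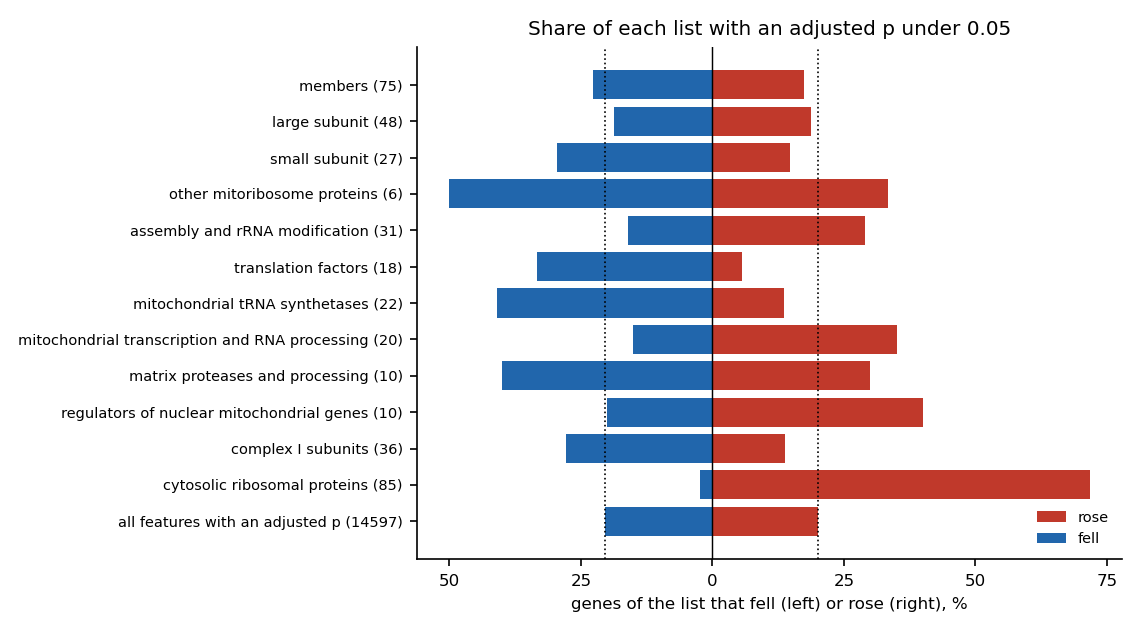
Share of each gene list that fell (left, blue) or rose (right, red) at an adjusted p under 0.05 in the authors' deposited table, with the number of genes in parentheses and dotted lines at the shares of all 14597 features. The members lie near the dotted lines on both sides, at 22.7% fell and 17.3% rose, while 61 of 85 cytosolic ribosomal protein genes rose.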

How the data were processed

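The authors' deposited table holds, per the file headers, a mean (a signal, namely the size-factor-normalized count averaged over libraries), a log2 fold change with its standard error, a statistic (score), a p-value and an adjusted p per gene. The submitters' processing notes name HTSeq 0.6.1, DESeq, DESeq2 and the build hg19, and no source used here states the aligner, annotation or strand setting. The deposited p-values and adjusted p-values, the log2 values and the deposited score were used as they stand, at an adjusted p under 0.05. This was the planned fallback where no deposited column holds counts per library (0 columns belong to single samples). The edgeR test was not run. Tests on recovered reads were limma and limma-voom.

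Whole reads were recovered from the means, the fold change and its standard error. Of 19461 features with reads, 16704 gave a single solution, holding 65.8% of the summed means. Refitted log2 fold changes of the members differed from the deposited ones by at most 4e-07. A solution was kept only within 2e-05 of the deposited fold change (1e-06 at means above 500), so this closeness is no separate check. In simulated data 300 of 300 features were recovered, and 0 of 400 means with a random offset had a solution. Both sets were drawn at means above 25. The simulated data came from the model used for recovery, so they cannot show errors of that model. The side of a library follows from the sign of the deposited fold change of genes with a single read. Size factors were 1.19 and 0.893 (siNC) and 1.15, 0.934 and 0.888 (siHOTAIR). Mean chi-square per feature was 1.95 to 4.01 between libraries of a group, where sampling noise alone gives 1, so no 2 libraries were counted as 1. Recovered reads were divided by size factors, and limma 3.58.1 (R 4.3.3, mean trend) was run on log2 of normalized counts plus 1 over 14359 features, with Benjamini-Hochberg adjustment. In 14359 simulated features it recovered 63 of 100 changes of 0.5 and 100 of 100 of 1 on the log2 scale, with 20 calls among 14159 unchanged features.

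The members and gene lists were chosen with earlier results of these data known. Named members were the 8 largest changes past the threshold and the 4 smallest p in each direction, the highest and lowest mean, and the 2 uncalled members whose fold change and standard error together lay nearest 0; up to 4 genes of other lists were named by p. Others were picked once their values were known. Among members they are MRPS17, MRPS18A, MRPS25, MRPL18, MRPL33, MRPL39, MRPL44, MRPL45, MRPL57 and those given by fold change alone. Among other genes they are AURKAIP1, CHCHD1, YY1, NRF1, GABPA and the neighbouring and overlapping genes.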

Additional observations from a re-analysis of the deposited data

How the results depend on the processing

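The named members that passed kept direction and call under centring on the median of all features, limma with a pseudocount of 1 or 0.5, limma-voom (chosen after seeing the data) and with each library left out, except MRPL36 (0.233 without siNC library A). MRPL3 (-0.0608 to 0.0900) and MRPS35 (-0.0333 to 0.0417), named as near 0, were never called and changed sign without siHOTAIR library A or siNC library A. Counts moved with the size asked for. At 1.5-fold or more, 3 members rose and 7 fell (13.3% of members, beside 17.8% of all features and 19.5% of those with a like mean; large subunit 3 and 2, small subunit 0 and 5), with 22 genes of the other lists called in place of 139. At 2-fold or more, 0 rose and 2 fell (large subunit 0 and 0, small subunit 0 and 2), with 3 of the other lists. Large subunit members that fell went from 9 to 14 at an adjusted p under 0.1, 15 with limma at either pseudocount and 14 with limma-voom. With 1 library left out (limma), 8 to 19 members rose and 12 to 24 fell, 5 to 14 and 7 to 16 in the large subunit, 3 to 5 and 5 to 8 in the small subunit. The other lists gave 75 to 100 calls, since only 171 of their 238 genes have recovered reads, and 89 of these are called in the deposited table. The members' median log2 fold change was -0.0975 to 0.09 (limma) or -0.0976 to 0.0921 (ratio of group means), lowest without siNC library A. No paired analysis was possible because the deposited columns carry no replicate numbers. The simulated features cannot give the share of true changes missed in these libraries, because far fewer of them were changed than were called here. In that simulation limma did miss part of the 0.5 changes. In the deposited table members passed at log2 fold changes as small as 0.217 (rose) and -0.239 (fell), while MRPL39 did not pass at -0.611.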
